A study of Homo sapiens with 6 samples.

Results

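Heat shock protein chaperones were followed in KMS27 cells, an established line of malignant human plasma cells, with and without overexpression of HA-tagged TAZ. The family was taken as 10 genes, HSPA1A, HSPA1B, HSPA8, HSPH1, HSP90AA1, HSP90AB1, DNAJB1, HSPB1, HSPD1 and HSPE1, of 56638 gene symbols in all. For each gene, transcripts were found by symbol and their abundance was summed over every Ensembl gene ID with that symbol. The unit is TPM, an abundance that is corrected for transcript length and states a share of the library. In total, 99 transcripts belonged to the 10 genes, and 9 genes had a mean of at least 1 TPM and were tested. HSPA1A did not reach this level and has no test.

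The series compared 3 libraries of HA-TAZ KMS27 cells with 3 libraries of wild type KMS27 cells, and its design text gives the effect of the overexpression on the transcriptome as the question. TAZ is the product of WWTR1, a coactivator of transcription that works through TEAD factors and is held in check by Hippo signalling. HA is a peptide tag. No time point, promoter, vector or clone is named in the labels. The column names of 3 libraries contain TAZ, while the other 3 columns are named scr, which no label uses. The latter were assigned to wild type by elimination and are named control a, b and c here. Since the titles of the wild type samples also carry HA, it is not known whether the controls held a construct. Nothing states that libraries of a group came from separate cultures, so p-values measure the spread between libraries, which may be technical.

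Heat shock proteins bind unfolded or partly folded proteins and help them to fold or to be degraded. HSP70 proteins such as HSPA8 and HSPA1B cycle between ATP and ADP forms, driven by J-domain partners such as DNAJB1 and by exchange factors such as HSPH1, and they pass some clients on to HSP90. Stress genes of the family are switched on by the factor HSF1, which binds repeats of the bases nGAAn, called heat shock elements. Myeloma cells make large amounts of secreted immunoglobulin and depend on protein quality control.

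The promoters are shown first because they show which genes carry such elements. RefSeq windows of the 250 bases before each annotated start were searched, in build GRCh38.p14, and all 10 genes were matched, with 16 windows. The 2-unit element was GAANNTTC or TTCNNGAA, the 3-unit element GAANNTTCNNGAA or TTCNNGAANNTTC, and each pair covers both strands. A 3-unit match also counts as 2-unit matches. HSPA1B and DNAJB1 were the tested members whose RNA differed most on scaled TPM, a scale explained further on. The sequences below are their upstream windows and that of HSPA6, a heat-inducible HSP70 gene outside the family list. They run 5′ to 3′ on the gene's strand, capitals mark element matches, and bases that GENCODE 29 counts as exon are left out.
HSPA1B chr6:31827488-31827734 (+): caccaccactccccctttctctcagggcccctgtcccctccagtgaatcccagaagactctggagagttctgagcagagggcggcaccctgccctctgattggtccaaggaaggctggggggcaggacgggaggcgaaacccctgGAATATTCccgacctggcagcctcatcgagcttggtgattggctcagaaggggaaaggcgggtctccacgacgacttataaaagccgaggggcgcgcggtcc
DNAJB1 chr19:14518421-14518647 (−): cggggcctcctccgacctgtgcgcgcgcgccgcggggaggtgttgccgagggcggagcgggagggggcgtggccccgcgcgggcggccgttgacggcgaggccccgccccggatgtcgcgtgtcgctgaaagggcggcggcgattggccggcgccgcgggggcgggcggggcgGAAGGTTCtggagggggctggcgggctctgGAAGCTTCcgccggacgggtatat
HSPA6 chr1:161524290-161524539 (+): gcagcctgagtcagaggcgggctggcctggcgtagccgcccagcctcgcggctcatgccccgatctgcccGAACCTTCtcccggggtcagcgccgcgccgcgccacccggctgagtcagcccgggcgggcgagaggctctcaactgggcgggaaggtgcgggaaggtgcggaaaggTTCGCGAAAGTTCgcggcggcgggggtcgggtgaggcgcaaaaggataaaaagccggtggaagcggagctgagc

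A 2-unit element was found in a window of 8 of the 10 genes, against 14% of 27305 genes with a window in RefSeq. HSPH1 and HSPE1 had no match in these windows. A 3-unit element was found for 4 of the 10 genes, HSPA8, HSP90AA1, HSP90AB1 and HSPD1, against 0.557% of all genes. Stretches of 30 bases around the elements of the other genes are printed to show how the spacing and number of units differ.
HSPA1A chr6:31815426-31815455 (+): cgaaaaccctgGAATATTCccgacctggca
HSPA8, far element chr11:123062346-123062375 (−): ggcgagcttGAAAGTTCCAGAAcgctgcgg
HSPA8, near element chr11:123062171-123062200 (−): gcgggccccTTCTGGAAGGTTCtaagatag
HSP90AA1, its last capital belonging to a further 2-unit match, chr14:102087112-102087141 (−): ggagggttcTTCCGGAAGGTTCgggaggcT
HSP90AB1, far element chr6:44247769-44247798 (+): gggagcaggTTCTGGAAGATTCatgggctc
HSP90AB1, near element chr6:44247822-44247851 (+): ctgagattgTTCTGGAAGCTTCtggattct
HSPB1 chr7:76302480-76302509 (+): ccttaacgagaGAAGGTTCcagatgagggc
HSPD1 chr2:197500061-197500090 (−): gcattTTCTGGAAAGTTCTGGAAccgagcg
The HSPD1 run, 18 bases long, was the longest run of units among the 10 genes. HSPD1 and HSPE1, which encode the mitochondrial chaperonin and its cap, are transcribed away from each other. With the HSPD1 start whose window holds the element, 538 bases lie between the starts. The element lies 294 to 311 bases before the start of HSPE1. HSPD1 has another annotated start, nearer to HSPE1, with the window chr2:197500275-197500524, and the element lies downstream of that start. GENCODE 29 counts all 250 bases of the element's window as exon of HSPD1. The same holds for the HSPA8 window, so both HSPA8 elements lie in annotated exon. Of the other windows with a printed stretch, exon covers 147 bases for HSP90AA1, 129 for HSPB1, 79 for HSPA1A and 77 for HSP90AB1. Exon bases were not left out of the 30-base stretches. The promoters of HSPA1A and HSPA1B were 93.6% identical, at 235 of 251 aligned columns. The core motif bound by TEAD factors, GGAATG or CATTCC, was in no window of the 10 genes and in 14.3% of all genes. It can overlap a heat shock element, since both hold GAA or TTC. A match describes the letters only, and occupancy was not measured.

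The level of WWTR1 served as the check of the labels, at 293, 306 and 293 TPM in HA-TAZ libraries 1, 2 and 3 against 2.69, 2.22 and 1.69 TPM in control a, b and c. All 8 plasma cell markers fixed for the check, SDC1 and TNFRSF17 among them, were expressed. Their sum was 550 to 599 TPM per HA-TAZ library and 653 to 743 TPM per control. On scaled TPM, explained next, CD38 was lower at a log2 fold change of −0.57 (limma, adjusted p = 0.0217). SLAMF7 was higher at 0.98 (limma, adjusted p = 0.00913), and the other plasma cell markers were not called. The sum of the B cell markers stayed at or below 0.223 TPM and that of the T cell markers at or below 0.540 TPM. Monocyte, erythroid, fibroblast and epithelial marker sums reached higher levels. Single markers reached 1.97 TPM for CSF1R, 2.12 TPM for COL1A1 and 4.51 TPM for KRT8. TPM of a library was divided by a median-of-ratios factor, giving scaled TPM, because a share can shift for all genes together. The factors, 0.847 to 0.958 for HA-TAZ and 1.08 to 1.23 for control libraries, did not overlap. This choice changes the sign for some of the genes below. The median log2 fold change of the 21011 tested symbols was 0.01 on scaled TPM, −0.07 with factors over protein-coding genes only, −0.09 with factors over symbols with a mean of at least 10 TPM, and −0.27 on TPM as deposited. Of the symbols called, 72.3%, 46.7%, 41.4% and 7.18% were higher in these settings in that order. Depth per library is not known from TPM, and the RNA content of the cells was not measured, so fewer cells expressing a gene and less RNA per cell cannot be told apart.

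The 10 genes together took 0.330%, 0.352% and 0.304% of TPM in HA-TAZ libraries 1, 2 and 3 and 0.375%, 0.344% and 0.318% in control a, b and c, with overlap. In controls, the order of mean TPM was HSPA8, HSPD1, HSP90AB1, HSP90AA1, HSPE1, HSPB1, HSPA1B, HSPH1, DNAJB1 and HSPA1A. The constitutive cytosolic HSP70, HSPA8, was therefore the most abundant and the stress-inducible DNAJB1 the least abundant of the tested genes. The control TPM ranges of HSPD1 and HSP90AB1 overlapped, as did those of HSPA1B and HSPH1 and of HSPH1 and DNAJB1, and the other neighbours in the order were apart. In HA-TAZ libraries DNAJB1 stood above HSPH1 by mean TPM, with overlap, and HSPA1B was apart from both.

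HSPA1B, DNAJB1 and HSP90AB1 rose in HA-TAZ libraries on scaled TPM, to 1.61, 1.43 and 1.23 times the control means, though HSP90AB1 was slightly below 0 on TPM as deposited, and no member fell. The test was limma on log2(scaled TPM + 1) with Benjamini-Hochberg adjustment over all tested symbols and a threshold of 0.05. The 3 of 9 tested genes stand beside a background of 9.87% of all symbols called, with 7.13% higher and 2.74% lower. The family was chosen with earlier results of these data known. On TPM as deposited only HSPA1B was called, against 17.6% of all symbols, 1.26% higher and 16.3% lower. With factors over protein-coding genes the same 3 genes were called, against 7.77%, of which 3.63% were higher and 4.15% lower. Over the 9 genes, the log2 fold change had a median of 0.30 on scaled TPM, where all symbols had 0.01, and −0.04 on TPM as deposited, where all symbols had −0.27. The background is not matched for level. It holds symbols from a mean of 1 TPM, while the 9 genes had control means of 48.6 to 958 scaled TPM. With factors over symbols with a mean of at least 10 TPM, HSPA8 was at 0.15 in place of 0.26 and all symbols had −0.09.

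**Figure D1:**
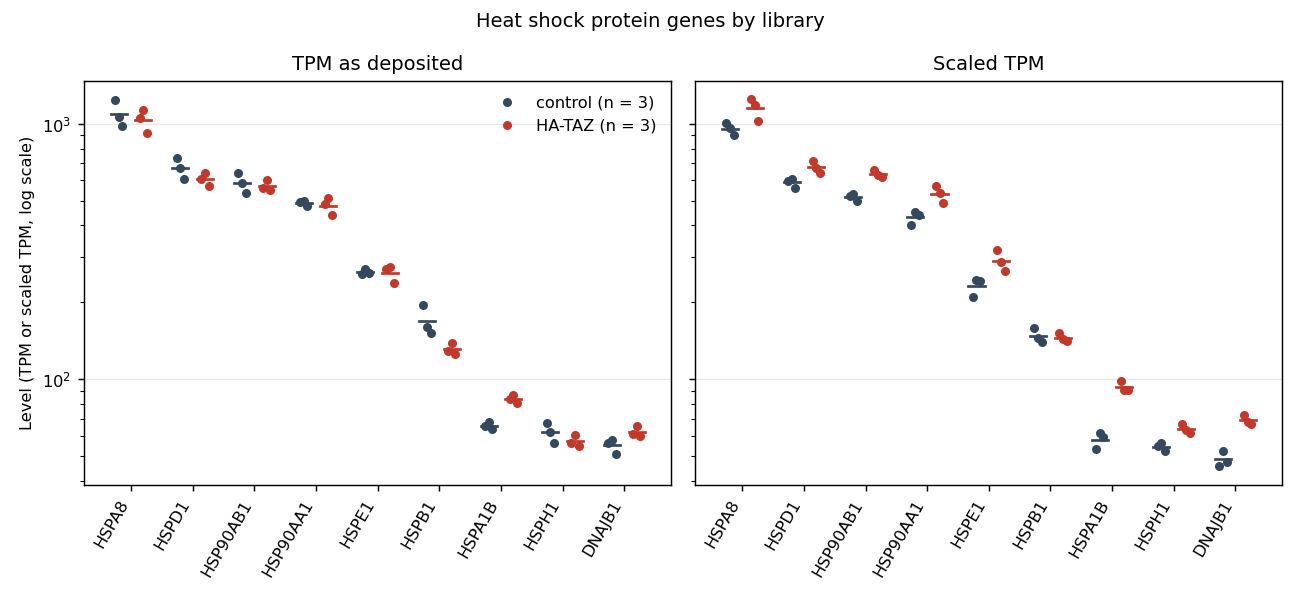
Level of the 9 tested heat shock protein genes in each library, on a log axis, as deposited TPM (left) and scaled TPM (right), with points for single libraries and short lines for group means (n = 3). On scaled TPM the HA-TAZ points lie above all control points for every gene but HSPB1, while on deposited TPM this holds for HSPA1B and DNAJB1 only.

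HSPA1B, like its copy HSPA1A, encodes a stress-inducible HSP70 of the cytosol. The level of HSPA1B was 83.7, 87.1 and 80.7 TPM in HA-TAZ libraries 1, 2 and 3 against 65.7, 67.9 and 63.9 TPM in control a, b and c. Every HA-TAZ library was above every control library, before and after scaling. On scaled TPM the means were 93.4 ± 4.68 and 58.1 ± 4.19 (SD, n = 3 each), and the log2 fold change was 0.68 (SE 0.07, 95% interval 0.51 to 0.85, limma, Benjamini-Hochberg adjusted p = 0.00927). It was 0.58 with factors over protein-coding genes (limma, adjusted p = 0.00943) and 0.34 on TPM as deposited (limma, adjusted p = 0.0268). Relative to the median of all symbols under the same scaling, these values were 0.67, 0.66 and 0.62. Subtracting the median removes most of the scaling, so their closeness was fixed in advance and does not show independence of it. HSPA1B was called under all 14 alternatives tried, with log2 fold changes from 0.34 to 0.75. The 0.75 came from the fit by Ensembl gene ID and is that of 1 ID, ENSG00000232804, so HSPA1B as a whole was not tested there. By symbol the highest value was 0.72. Without HA-TAZ library 1, 2 or 3 the call was near the threshold, at adjusted p-values of 0.0493, 0.0471 and 0.0413 in limma.

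HSPA1A, the neighbouring copy with nearly the same coding sequence, was at 0.236, 0.170 and 0.168 TPM in HA-TAZ libraries against 0.251, 0.146 and 0.0863 TPM in controls, with overlap. The copies share most of their RNA. In GENCODE 29, 73.6% of the 31-base words of HSPA1A also occur in HSPA1B. The split of reads between both symbols is therefore uncertain. Their sum does not depend on it and gave a log2 fold change of 0.68 (limma, adjusted p = 0.00927) and 0.34 on TPM as deposited (limma, adjusted p = 0.0268). Each symbol also has 5 gene IDs, one of them on the primary chromosome and the others on alternative haplotypes of the same region. Most of HSPA1B was assigned to ENSG00000232804, at 69.5 and 51.7 TPM, and ENSG00000231555, at 12.7 TPM in both groups. Which haplotype copies KMS27 carries cannot be read from these shares.

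DNAJB1, the J-domain partner that hands clients to HSP70 and a strongly heat-inducible gene, was at 61.3, 65.5 and 59.9 TPM in HA-TAZ libraries 1, 2 and 3 against 56.1, 58.1 and 51.2 TPM in control a, b and c. The groups did not overlap, although the lowest HA-TAZ library was only slightly above the highest control. On scaled TPM the means were 69.3 ± 2.75 and 48.6 ± 3.65 (SD, n = 3 each). The log2 fold change was 0.51 (SE 0.07, 95% interval 0.34 to 0.67, limma, adjusted p = 0.0180). It was 0.41 with factors over protein-coding genes (limma, adjusted p = 0.0192) and 0.17 on TPM as deposited, where it was not called (limma, adjusted p = 0.121). Relative to the median of all symbols, the values were 0.50, 0.49 and 0.45, again close by construction. The call held in 10 of 14 alternatives and the sign was positive in all of them. It was lost without HA-TAZ library 1, 2 or 3, at adjusted p-values of 0.0758, 0.0713 and 0.0543 in limma.

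HSP90AB1 encodes the constitutive cytosolic HSP90 and HSP90AA1 the inducible one. HSP90AB1 was at 560, 603 and 552 TPM in HA-TAZ libraries 1, 2 and 3 against 640, 584 and 536 TPM in control a, b and c, and the groups overlapped. After scaling they were apart, with means of 637 ± 21.6 and 516 ± 17.1 (SD, n = 3 each). The log2 fold change was 0.30 (SE 0.06, limma, adjusted p = 0.0338), 0.21 with factors over protein-coding genes (limma, adjusted p = 0.0491) and −0.03 on TPM as deposited (limma, adjusted p = 0.763). The call held in 5 of 14 alternatives and was lost when any 1 of the 6 libraries was left out, at adjusted p-values from 0.0640 to 0.113 in limma. HSP90AA1 was at 484, 514 and 438 TPM in HA-TAZ libraries against 495, 500 and 475 TPM in controls, also with overlap. Its log2 fold change was 0.30 on scaled TPM (limma, adjusted p = 0.0644) and −0.04 on TPM as deposited. Both HSP90 genes thus had like differences on scaled TPM, and neither was called on TPM as deposited.

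**Figure D2:**
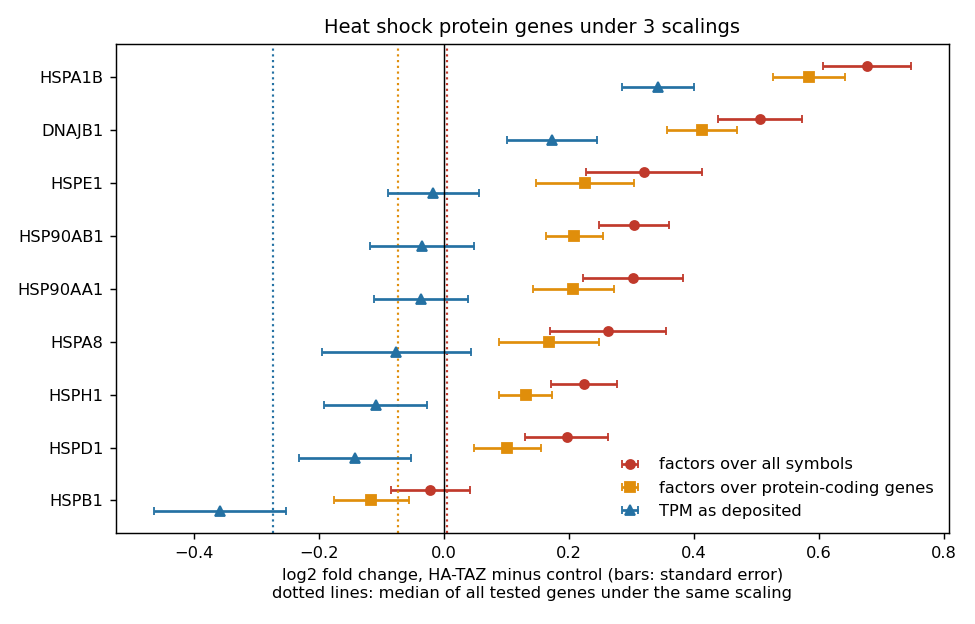
Log2 fold change of each tested gene, HA-TAZ minus control, under 3 scalings, with standard errors as bars and the median of all tested symbols as a dotted line per scaling. HSPA1B and DNAJB1 are above 0 under all 3, HSPB1 is at or below 0, and the other 6 genes are above 0 after scaling and at or below 0 on TPM as deposited.

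HSPA8, which folds new proteins and uncoats vesicles in unstressed cells, was at 1055, 1132 and 918 TPM in HA-TAZ libraries 1, 2 and 3 against 1239, 1060 and 977 TPM in control a, b and c. The groups overlapped. On scaled TPM the log2 fold change was 0.26 with a 95% interval of 0.04 to 0.49 (limma, adjusted p = 0.116), and on deposited TPM it was −0.08. HSPH1, the HSP110 exchange factor of HSP70, was at 56.4, 60.7 and 54.8 TPM in HA-TAZ libraries against 67.2, 62.2 and 56.6 TPM in controls. Its log2 fold change was 0.22 on scaled TPM (limma, adjusted p = 0.0512) and −0.11 on deposited TPM. HSPH1 and HSP90AA1 passed the threshold when only symbols with a mean of at least 5 TPM were tested, at adjusted p-values of 0.0363 and 0.0447 in limma.

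The mitochondrial pair did not pass the test under any of the 14 alternatives. HSPD1, the HSP60 chaperonin, was at 606, 642 and 572 TPM in HA-TAZ libraries 1, 2 and 3 against 734, 672 and 605 TPM in control a, b and c. HSPE1, the HSP10 cap, was at 271, 275 and 237 TPM in HA-TAZ libraries against 259, 271 and 261 TPM in controls. Both overlapped between the groups before scaling. On scaled TPM the log2 fold changes were 0.20 for HSPD1 (limma, adjusted p = 0.106) and 0.32 for HSPE1 (limma, adjusted p = 0.0779), and on deposited TPM they were −0.14 and −0.02. The 95% intervals on scaled TPM were 0.03 to 0.36 and 0.09 to 0.55, which overlap.

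HSPB1, a small heat shock protein that holds unfolded proteins without using ATP, was the only tested member below 0 on scaled TPM, a sign that turned without HA-TAZ library 3 or without control a. Its level was 129, 138 and 126 TPM in HA-TAZ libraries 1, 2 and 3 against 195, 160 and 152 TPM in control a, b and c. Every HA-TAZ library was below every control, most of all control a. After scaling the groups overlapped, with means of 146 ± 5.57 and 148 ± 9.62 (SD, n = 3 each). The log2 fold change was −0.02 with a 95% interval of −0.17 to 0.13 (limma, adjusted p = 0.842), −0.12 with factors over protein-coding genes and −0.36 on TPM as deposited (limma, adjusted p = 0.0593).

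Counted over the 9 tested genes, HA-TAZ and control libraries did not overlap on scaled TPM for 8, all higher in HA-TAZ libraries, beside 23.1% of all symbols higher and 39.1% apart in either direction. On TPM as deposited, 2 were higher and 1 lower without overlap, beside 4.21% and 44.6% of all symbols and 48.8% in either direction, and 6 overlapped. These shares of all symbols are also not matched for level. An exact two-sided permutation test of 3 against 3 libraries cannot give a p-value below 0.1.

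Single transcripts were tested as well. Of the 99 transcripts, 60 had a mean of at least 1 TPM and 2 were called on scaled TPM, beside 0.592% of 57448 transcripts. The HSPA1B transcript ENST00000450744.1 was at 68.0, 72.0 and 68.6 TPM in HA-TAZ libraries 1, 2 and 3 against 50.3, 52.3 and 52.5 TPM in control a, b and c, and its log2 fold change was 0.75 (limma, adjusted p = 0.0412). The second HSPA1B transcript, ENST00000445736.1, was at 13.9, 13.3 and 10.8 TPM and at 13.7, 14.6 and 9.77 TPM, with overlap (limma, adjusted p = 0.283). The called difference of HSPA1B was thus assigned to the transcript of 1 haplotype copy. The other transcript overlapped between the groups, at a log2 fold change of 0.32 (SE 0.17). How reads were split between such copies is uncertain, so the difference cannot be placed in 1 of them. The other called transcript was ENST00000527983.1 of HSPA8, annotated as a retained intron, which took 0.995% and 0.667% of its gene. It was found at 9.59, 10.4 and 10.6 TPM and at 7.18, 6.85 and 7.57 TPM, with a log2 fold change of 0.75 (limma, adjusted p = 0.0457).

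The transcripts of a gene did not all differ alike. The main DNAJB1 transcript, ENST00000254322.2, was at 49.3, 47.3 and 49.1 TPM in HA-TAZ libraries 1, 2 and 3 against 34.9, 36.6 and 40.0 TPM in control a, b and c. It held 78.2 ± 5.28% of the gene in HA-TAZ libraries and 67.7 ± 8.96% in controls (SD, n = 3 each), and its log2 fold change of 0.71 did not pass (limma, adjusted p = 0.0666). This transcript therefore had a larger difference than the sum of the gene. For HSPB1, ENST00000248553.6 was at 124, 116 and 121 TPM and at 109, 120 and 126 TPM, so the groups overlapped as deposited. On scaled TPM this transcript was higher without overlap, at 146, 121 and 135 against 88.6, 108 and 117. Its log2 fold change was 0.36 and was not called (limma, adjusted p = 0.163). The lower HSPB1 total came from ENST00000429938.1, which was listed at under 0.001 TPM in HA-TAZ libraries 1 and 3 and at 16.9 TPM in HA-TAZ library 2, and at 80.8, 34.9 and 20.4 TPM in control a, b and c (limma on the transcript, adjusted p = 0.139). For HSPE1, ENST00000233893.5 was at 130, 128 and 134 TPM and at 98.5, 87.2 and 121 TPM, without overlap (limma, adjusted p = 0.0839). Its share of the gene was 50.3 ± 5.24% and 38.9 ± 7.09% (SD, n = 3 each).

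In the authors' deposited table, which tests each transcript on estimated counts, 72 of the 99 transcripts had statistics and 13 had a q-value under 0.05, all with a positive effect. In the authors' deposited table as a whole, 5.68% of 109487 transcripts passed, 4.08% with effects above 0 and 1.60% with effects below 0. The 13 belonged to 7 genes, HSPA1B, HSPA8, HSPH1, HSP90AA1, HSP90AB1, DNAJB1 and HSPE1, and none to HSPD1, HSPB1 or HSPA1A. Effects in the authors' deposited table are natural logs. They were 0.522 for ENST00000450744.1 of HSPA1B (q = 1.08e-21), 0.496 for ENST00000254322.2 of DNAJB1 (q = 1.19e-06) and 0.475 for ENST00000233893.5 of HSPE1 (q = 0.00294) in the authors' deposited table. The main transcripts of HSP90AB1 and HSPA8, ENST00000371646.5 and ENST00000227378.3, had smaller effects of 0.220 and 0.189 in the authors' deposited table. At a q-value under 0.01, 8 transcripts of 6 genes remained in the authors' deposited table, and HSP90AA1 was no longer among them. The authors' table and the test on scaled TPM rest on the same 6 libraries. For ENST00000227378.3 the authors' effect implies 1.21 times the control. Its means in HA-TAZ and control libraries were 466 and 483 TPM as deposited, and 518 and 424 on scaled TPM. How the authors' test scaled the libraries was not examined, so its signs are not a check of the scaling.

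**Figure D3:**
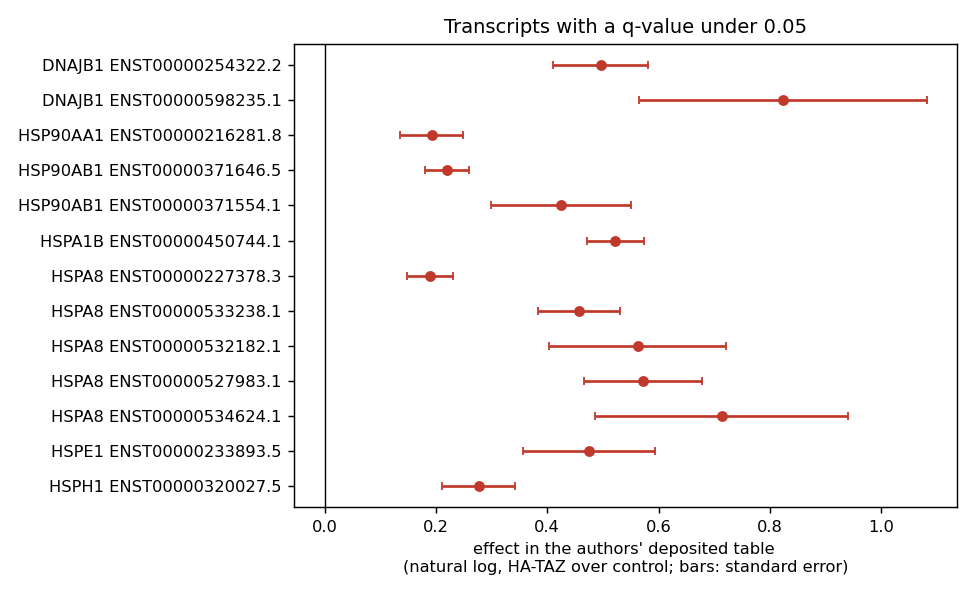
Effect of HA-TAZ over control in the authors' deposited table for the 13 transcripts with a q-value under 0.05, as a natural log with its standard error as bars. All 13 effects are positive, from 0.189 for ENST00000227378.3 of HSPA8 to 0.824 for ENST00000598235.1 of DNAJB1.

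Other genes of the chaperone system were read from 8 lists with 86 genes, of which 76 were tested. The lists were chosen with earlier results of these data known. On scaled TPM, 25 rose and 0 fell in limma, beside the background of 7.13% of symbols higher and 2.74% lower, and 48 had an unadjusted p under 0.05, as did 31.8% of all symbols. The middle value of their log2 fold changes was 0.24. On TPM as deposited 6 rose and 1, the phosphatase cochaperone gene PPP5C, fell, with a median of −0.08 where all symbols had −0.27. With factors over protein-coding genes 14 rose and 1 fell, again PPP5C.

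HSF1, the factor that drives heat shock genes, was at 55.2, 56.6 and 60.1 TPM in HA-TAZ libraries 1, 2 and 3 against 47.4, 53.4 and 55.8 TPM in control a, b and c, with overlap. Its log2 fold change was 0.47 on scaled TPM (limma, adjusted p = 0.0584) and 0.14 on TPM as deposited. HSBP1, which encodes a binding protein of HSF1, was the 1 of 4 tested genes among the factors and regulators that rose, at 0.52 (limma, adjusted p = 0.0335). HSBP1 was not called on TPM as deposited, at 0.19 (limma, adjusted p = 0.0939), and lost its call in 9 of 13 alternatives, among them each fit without 1 library except that without control a. HSF2 was at 0.13 on scaled TPM and −0.18 on TPM as deposited and was not called on either.

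Among the other HSP70 and HSP110 genes, HSPA6 rose and was 1 of 6 tested. HSPA6 is barely expressed in unstressed human cells in general and is strongly induced by heat. Its level was 18.3, 19.6 and 19.3 TPM in HA-TAZ libraries 1, 2 and 3 against 9.45, 9.42 and 8.30 TPM in control a, b and c. The HA-TAZ libraries were 2.10 times higher by mean TPM, without overlap. The log2 fold change was 1.31 (SE 0.07, limma, adjusted p = 0.00112) and 0.996 on TPM as deposited (limma, adjusted p = 0.00713), and it was called in all 13 alternatives. HSPA7, its near copy, was at 0.615 ± 0.171 and 0.296 ± 0.106 TPM (SD, n = 3 each), too low to be tested, and 56.6% of the 31-base words of HSPA6 also occur in HSPA7. HSPA7 was added after its values were seen. HSPA4, an HSP110 gene, was at 0.09 on scaled TPM and below 0 on the other 3 scalings, and was not called.

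The named partners of HSP70 and HSP90 had smaller values than HSPA6. Of 15 tested J-domain genes 5 rose, with DNAJA1 at 0.35 (limma, adjusted p = 0.0225), DNAJB2 at 0.40 and DNAJA2 at 0.26. Of 9 nucleotide exchange factors 3 rose, with BAG3, which links HSP70 to autophagy, at 0.45 (limma, adjusted p = 0.0275), HSPBP1 at 0.44 and BAG6 at 0.23. Of 15 HSP90 partners 4 rose, with the immunophilin gene FKBP4 at 0.40, the ubiquitin ligase gene STUB1 at 0.42 and the kinase adaptor gene CDC37 at 0.41. Of 14 genes of the TRiC chaperonin and prefoldin 4 rose, with CCT4 at 0.28, CCT3 at 0.30 and PFDN2 at 0.42. None of these named partners was called on TPM as deposited, where DNAJA2, BAG6, CCT3 and CCT4 were below 0, and each lost its call in 4 to 11 of 13 alternatives. Only 2 small heat shock protein genes were tested and 0 were called. At an unadjusted p under 0.05, also 0 of these 2 passed in limma.

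Of 11 other heat-inducible genes, which heat and other stresses raise, 7 rose on scaled TPM and 5 on TPM as deposited. ATF3, a stress-induced transcription factor gene, was at 24.2, 24.7 and 24.6 TPM in HA-TAZ libraries 1, 2 and 3 against 15.8, 17.1 and 15.1 TPM in control a, b and c. Its log2 fold change was 0.91 on scaled TPM (limma, adjusted p = 0.00683) and 0.59 on TPM as deposited (limma, adjusted p = 0.0182). IER5, an immediate early gene, was at 0.90 (limma, adjusted p = 0.00927) and RGS2, a regulator of G protein signalling, at 0.89 (limma, adjusted p = 0.00911). Their values as deposited were 0.59 and 0.61, and both were called there. ATF3 and IER5 were called in all 13 alternatives, and RGS2 in all but the fit without HA-TAZ library 1 (limma, adjusted p = 0.0518). HMOX1, which degrades heme, was called on both scales too, at 1.03 on scaled TPM. All 11 genes of this list lay above the controls without overlap on scaled TPM, beside 23.1% of all symbols, and 5 did on TPM as deposited, beside 4.21%. Because the list was chosen with earlier results of these data known, these counts describe it and do not test it.

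**Figure D4:**
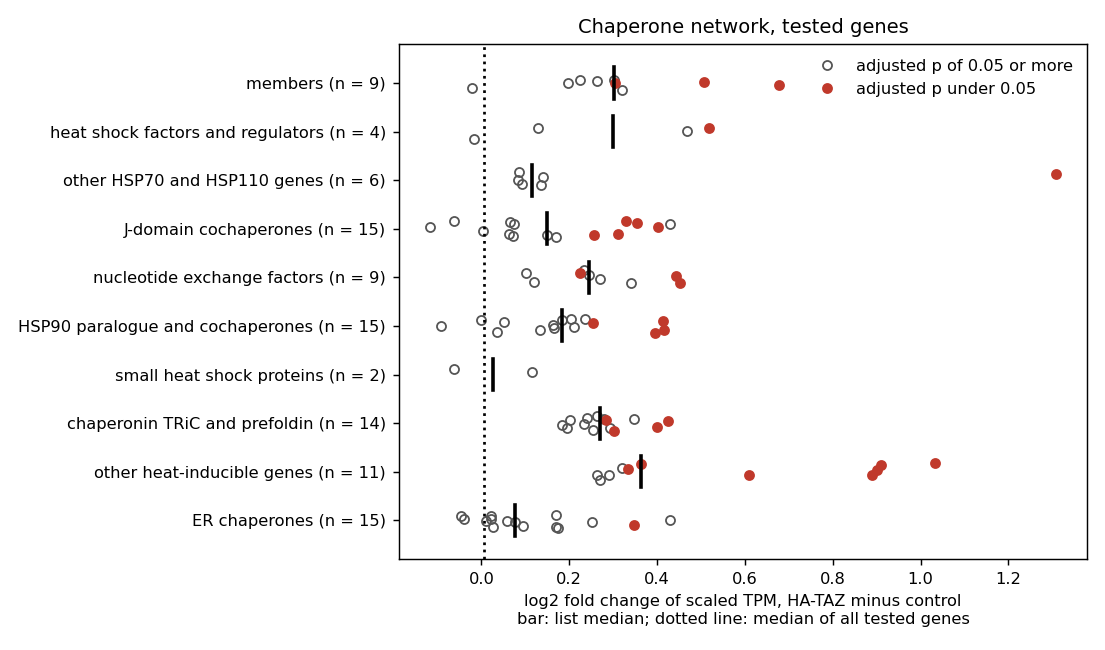
Log2 fold change on scaled TPM of each tested gene, by list, with filled points for an adjusted p under 0.05, a bar for the list median and a dotted line at the median of all tested symbols. The largest value is HSPA6 at 1.31, and most list medians lie between 0.1 and 0.4; on TPM as deposited the median over the 8 lists is −0.08.

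The chaperones of the endoplasmic reticulum serve secreted proteins and answer to the unfolded protein response. Of 15 such genes 1 rose on scaled TPM, HSP90B1, the HSP90 of this compartment, at 0.35 (limma, adjusted p = 0.0228), a share near the 7.13% of all symbols higher. Their median log2 fold change was 0.08, and on TPM as deposited −0.26, where 0 rose and 2, PDIA3 and PDIA4, fell, beside 16.3% of all symbols lower. HSP90B1 itself was at 0.01 on TPM as deposited and was not called. Whether these genes differ as a group from the cytosolic ones was not tested. In RefSeq windows, 1 of 14 matched genes of this group, CANX, had a 2-unit heat shock element and 0 had a 3-unit one, and among 70 matched genes of the 8 chaperone lists 19 and 4 had them.

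By pattern over the 6 libraries, the symbols outside the family most like HSPA1B were GPR132, PARP12 and GAPDH, with root mean square differences of 0.0224, 0.0328 and 0.0341 on the centred log2 scale. Those most like DNAJB1 were CDC42SE1, POLR1E and YWHAG, at 0.0265, 0.0280 and 0.0304. Those most like HSP90AB1 were STAU1, HEXIM1 and C17orf80, at 0.0108, 0.0149 and 0.0154. These likenesses include the difference between the 2 groups.

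Genes that overlap or copy a member can share reads with it, and their levels are given here. The sharing of reads itself was not measured. HSPE1-MOB4, a readthrough of HSPE1 into its neighbour, had means of 6.14 ± 0.291 and 6.38 ± 1.65 TPM (SD, n = 3 each), and the groups overlapped. Of the small nucleolar RNA genes in introns of HSPA8, SNORD14E was at 84.5 ± 10.2 and 91.9 ± 26.7 TPM (SD, n = 3 each), and SNORD14C and SNORD14D were listed at 0 in every library. Of 68 pseudogenes 12 had a mean of at least 1 TPM and 0 were called in limma, with 5 at an unadjusted p under 0.05, beside 31.8% of all symbols. The pseudogenes of HSPE1 summed to 19.3 and 29.4 TPM, or 7.39% and 11.2% of HSPE1, while those of each other member came to at most 0.450% of it. HSPE1 thus had the largest level of copies relative to its own among the members with pseudogenes here.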

How the data were processed

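Per the labels' protocols, total RNA was treated with DNase, depleted of ribosomal RNA and sequenced in pairs from stranded libraries. Per the submitters' processing notes, kallisto 0.46.0, sleuth 0.30.0 and build GRCh37 were used. Whether quantification used the strand is not given in the sources used here. The authors deposited TPM for 215170 transcripts, and a table of their own Wald test per transcript, whose p-values and q-values and natural log effects are named as such per the file headers.

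TPM was summed per symbol (56638 symbols) with the pairing in the authors' deposited table. Scaled TPM is TPM over the median-of-ratios factor of its library, taken over 30892 symbols above 0 in all libraries. Symbols with a mean of at least 1 TPM (21011) were tested with limma 3.58.1 (trend, two-sided, R 4.3.3) on log2(scaled TPM + 1), a scale that understates changes of low genes, with Benjamini-Hochberg adjustment over all of them and a threshold of 0.05. The fit of 57448 transcripts was alike. The procedure was run on simulated data in which few symbols were changed, a setting that cannot check the choice of scaling. Tables and figures used pandas 2.3.3, matplotlib 3.10.9 and Python 3.11.15.

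All 6 columns of values were used, and 0 others were left aside. Members and lists were chosen with earlier results of these data known. Named genes were the members, the called genes with the 3 smallest adjusted p-values of each list, HSF1, HSF2, BAG3, HSPA6, HSPA4 and DNAJA1, and the 3 symbols nearest in pattern to each called member. HMOX1, PPP5C, PDIA3, PDIA4 and HSPA7 were named after their values were seen. Sequences come from RefSeq, GRCh38.p14, another build than the quantification. Alternatives were TPM as deposited, factors over symbols with a mean of at least 10 TPM, a pseudocount of 0.1, a minimum of 5 TPM, no filter, no trend, Ensembl gene IDs in place of symbols, and each library left out. Factors over protein-coding genes were added after the data were seen.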

Additional observations from a re-analysis of the deposited data

How the results depend on the processing

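No paired analysis was possible because the control columns carry a name that is in no label, so their numbers cannot be tied to numbered samples. On TPM as deposited, 1 member was called in place of 3, and with a minimum of 5 TPM it was 5. Leaving out 1 library gave 1 or 2 members, 1 without HA-TAZ library 1, 2 or 3. HSPA1B was among the called members in each of these fits. The cause was not tested, beyond fewer libraries in the fits that leave one out. The counts over all symbols (2074 on scaled TPM) were 3693 on TPM as deposited, 778 without a filter, 831 without the trend and 167 to 683 with 1 library left out. Transcripts called (340) numbered 120 on TPM as deposited, 212 with a pseudocount of 0.1, 116 without a filter, 2308 with a minimum of 5 TPM, 170 without the trend and 14 to 108 with 1 library left out. The 25 called chaperone network genes became 7 on TPM as deposited, 12 with factors over symbols with a mean of at least 10 TPM, 15 with factors over protein-coding genes, 10 without a filter, 10 without the trend and 4 to 10 with 1 library left out. For the ER chaperones, 1 called gene became 2 on TPM as deposited, 2 with a minimum of 5 TPM, 0 without the trend and 0 in each limma fit without 1 library; 5 of these genes had an unadjusted p under 0.05 with all libraries, near the 31.8% of all symbols. In the authors' deposited table, 13 member transcripts became 8 at a q-value under 0.01.

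The log2 fold change turned negative on TPM as deposited for HSPA8 (−0.0756), HSPH1 (−0.11), HSP90AA1 (−0.0359), HSP90AB1 (−0.0343), HSPD1 (−0.14), HSPE1 (−0.0168), BAG6 (−0.11), CCT3 (−0.0361), CCT4 (−0.0528), DNAJA2 (−0.0684), HSF2 (−0.18) and HSPA4 (−0.24). HSPA4 was also negative with factors over symbols with a mean of at least 10 TPM (−0.0189) and over protein-coding genes (−0.00198). With 1 library left out, HSPB1 ranged from −0.0576 without control c to 0.0328 without control a, and was 0.0057 without HA-TAZ library 3. The deposited values hold no read depth, so the counting error of single libraries is not known, and 3 libraries a group limit what small differences can be called.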
